A study of Mus musculus with 31 samples.

Results

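Whole testes and whole ovaries of wild-type mouse embryos at 16 days post coitum (16 dpc, days after mating) were set side by side here. The members are the 3 arrays labelled wild-type testis at 16 dpc and the 3 labelled wild-type ovary at 16 dpc, chosen by the genotype, gonad and age in the labels, 6 of the 31 arrays of the series. In the whole study, testes and ovaries at 12, 14 and 16 dpc came from wild-type or Wv/Wv embryos, and RNA was hybridised to Affymetrix 3′ expression arrays. Wv, carried on both chromosomes in Wv/Wv embryos, is a mutation of Kit that weakens the receptor for stem cell factor in every cell that carries it, and Wv/Wv gonads hold few germ cells, although cells other than germ cells also use Kit. Other groups used for comparison were testes and ovaries of Wv/Wv embryos at 16 dpc (3 arrays each) and of wild-type embryos at 14 dpc (3 arrays each). No treatment is recorded for any of these groups, and the sources used here do not give the strain. Arrays of a group are labelled as biological replicates, but nothing states that each came from its own embryo or litter. The p-values and standard errors therefore cover only the variation among arrays of a group, part of which may be technical. That variation was pooled over the 12 groups of all 31 arrays, not taken from the 6 arrays compared alone.

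By this age the gonad of a male embryo has formed cords of Sertoli cells around the germ cells, with peritubular muscle cells at the cord wall and steroid-making fetal Leydig cells between the cords. Male germ cells stop dividing and prepare to silence transposons by DNA methylation guided by PIWI-interacting RNAs (piRNAs). In the ovary, germ cells instead enter meiotic prophase, in which homologous chromosomes pair and recombine, and the surrounding pregranulosa cells depend on WNT signalling and on the transcription factor FOXL2. A whole gonad mixes all of these cells, and in such a sample fewer cells of a type and less RNA per cell cannot be told apart.

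Values are the log2 signals that the authors deposited, so a difference of 1 is a 2-fold change, and every difference is given as testis minus ovary with the standard error of the fit. A gene was called at a limma adjusted p below 0.05 over all 18194 genes tested. Signals carry no detection calls here, and the 40th percentile of all values, 5.39, served as a limit of low signal. Where a fold is written as "at least", the gonad with less signal was under that limit on its 3 arrays. Its values were then replaced by the limit. Some such genes are given by their plain difference instead, among them Sox8, Uty, Uba1y, Nts, Tubb3 and Pmaip1. Those differences include signal under the limit.

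The 31 arrays fell into a wide kind and a narrow kind by the SD of their log2 values over all probe sets. The SD was 2.33 to 2.39 on 21 wide arrays and 1.77 to 2.18 on 10 narrow ones. For Gapdh, control probe sets at the 3′ end exceeded those at the 5′ end by a mean of 2.01 ± 0.19 (SD, n = 21) on wide arrays and 0.70 ± 0.19 (SD, n = 10) on narrow ones. The same measure for Actb was 1.21 to 1.97 on wide arrays and 0.82 to 0.96 on 9 narrow ones, and on testis array 1 it lay inside the wide range, although the SD of that array put it with the narrow kind. The fits with kind of array as a term that keep testis array 1, and those of narrow arrays alone, rest on that assignment. Among the 6 arrays compared, testis array 1 was narrow, with the lowest SD of the series (1.77), testis arrays 2 and 3 were wide (2.35 and 2.38), and all 3 ovary arrays were narrow (2.06, 2.18 and 2.11). Over genes, testis array 1 correlated with testis arrays 2 and 3 at r = 0.875 and 0.873, while arrays 2 and 3 reached 0.994, and pairs of ovary arrays 0.981 to 0.986. Testis array 1 stood apart from the other two, and the narrow and wide kinds lay unevenly between the gonads. Counts are given with and without that array, and also from a fit with the kind of array as a term and that array left out.

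The sex of the gonads matched the labels on every array. Xist, the RNA that coats the inactive X chromosome of females, measured 8.04, 6.07 and 5.49 in testes against 11.80, 11.72 and 12.05 in ovaries. The Y-linked translation factor gene Eif2s3y measured 6.74, 10.31 and 9.89 in testes against 3.70, 3.58 and 4.20 in ovaries, and the Y-linked demethylase gene Kdm5d 6.21, 8.64 and 8.44 in testes against 3.58, 3.11 and 3.26 in ovaries. On the probe sets used, the gonads did not overlap for any of these genes, but testis array 1 lay nearest the ovaries in all of them. Other Xist probe sets gave lower testis values. One measured 4.24, 4.71 and 3.74 in testes against 11.68, 10.79 and 11.92 in ovaries. Another measured 5.00, 3.64 and 3.91 in testes against 9.57, 8.53 and 9.56 in ovaries. Over the whole series, Xist ranged from 6.60 to 8.04 on the 3 narrow testis arrays and from 5.19 to 6.65 on the 12 wide ones, and Eif2s3y from 6.74 to 9.31 and from 9.82 to 10.65. Of the Y-linked list, 3 of 6 measured genes were called higher in testes, the third being Uty (2.26 ± 0.32, adjusted p = 3.84e-05), while the sex-determining gene Sry, already past its peak at this age, gave a difference of −0.27. The X-linked partners Eif2s3x and Kdm5c, which escape X inactivation, fell by 1.02 and 0.98. Neither was called in the fit with kind of array as a term and testis array 1 left out. The call of Eif2s3x was also lost without ovary array 2 or 3, and that of Kdm5c without ovary array 1 or 2.

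In all, 1755 genes were called (9.65% of those tested), 819 higher in testes (4.5%) and 936 lower (5.14%), and 4039 (22.2%) had an unadjusted p below 0.05. The 3 testis arrays lay wholly above or wholly below the 3 ovary arrays for 3497 genes (19.2%), above for 1273 (7%) and below for 2224 (12.2%). Genes called higher had a median difference of 1.34 and those called lower −1.10, against −0.05 over all genes. With testis array 1 left out, 3175 genes were higher (17.5%) and 1598 lower (8.78%) by the same call, and the share of higher calls moved to 66.5%, against 46.7% with all arrays. List counts given below without testis array 1 stand beside those shares of all genes, 17.5% and 8.78%. Leaving out testis array 2 gave 520 higher calls, testis array 3 gave 558, ovary array 3 gave 611 lower calls, and the fit with kind of array as a term and testis array 1 left out gave 1452 higher (7.98%) and 1476 lower (8.11%). Of the original calls, 793 of the 819 higher and 756 of the 936 lower ones were called the same way without testis array 1. For 667 of the 819 genes called higher (81.4%), testis array 1 was the testis array nearest the ovaries, against 241 of the 936 called lower (25.7%). Narrow arrays alone, which set testis array 1 against the 3 ovaries with the spread pooled over groups, gave 2023 higher and 5361 lower calls. Wide arrays gave no value, as they include no wild-type ovary at 16 dpc.

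**Figure D1:**
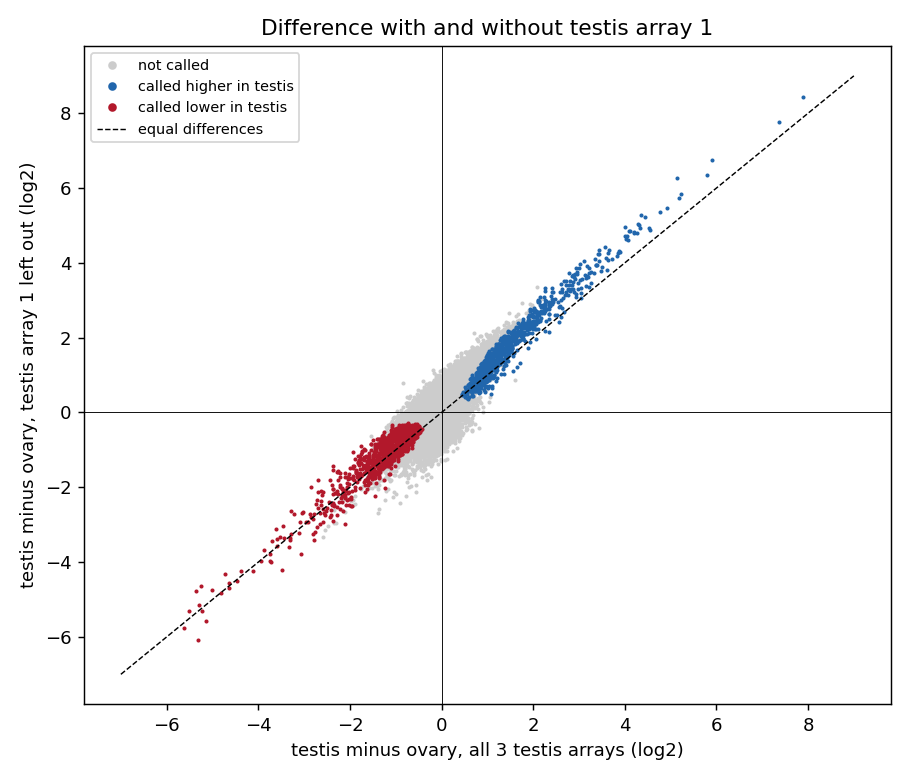
Testis minus ovary difference (log2) of each of 18194 genes with all 3 testis arrays (horizontal) and with testis array 1 left out (vertical); blue points were called higher in testes, red points lower, and the dashed line marks equal differences. Genes called higher lie mostly above the line, where the difference was larger without that array.

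The genes of steroid hormone synthesis, which fetal Leydig cells make, held the largest rises of all genes, those of Cyp11a1 and Cyp17a1. Cyp11a1, the enzyme that cleaves the cholesterol side chain in the first step of steroid synthesis, measured 11.19, 12.80 and 12.91 in testes against 4.27, 4.34 and 4.61 in ovaries. Its lowest testis array was higher than any ovary array by more than 6 log2 units, and the ovaries lay below the low-signal limit. Cyp11a1 was thus at least 120.5-fold higher in testes (difference 7.89 ± 0.33, adjusted p = 7.06e-14). Cyp17a1, whose product makes androgen precursors, measured 12.72, 13.89 and 13.95 in testes against 5.85, 6.25 and 6.35 in ovaries, and rose by 7.37 ± 0.30 (adjusted p = 7.04e-14). Star, the protein that carries cholesterol into mitochondria, measured 9.60, 11.33 and 11.14 in testes against 6.63, 6.30 and 6.92 in ovaries, again without overlap and with testis array 1 lowest of the testes. Its rise was 4.07 ± 0.32 (adjusted p = 3.78e-09). Hsd3b1, a 3β-hydroxysteroid dehydrogenase gene with clear signal in both gonads, measured 11.01, 12.92 and 12.86 in testes against 9.35, 9.30 and 9.53 in ovaries and rose by 2.87 ± 0.39. Scarb1, the receptor that takes up cholesterol from high-density lipoprotein, measured 9.60, 12.37 and 12.65 in testes against 7.39, 7.83 and 7.40 in ovaries and rose by 4.00 ± 0.71 (adjusted p = 0.000511), the testis arrays spreading over more than 3 log2 units. Of 18 measured members of the Leydig and steroid list, 14 were called higher and 0 lower, with a median of 2.67 against −0.05 over all genes, and without testis array 1 the counts were 15 and 0. Members not called included Cyb5a, a cofactor of the androgen step, and the nuclear receptor genes Nr5a1 and Nr2f2, at 0.08, 0.81 and 0.15. Insl3 and Lhcgr were not analysed here.

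**Figure D2:**
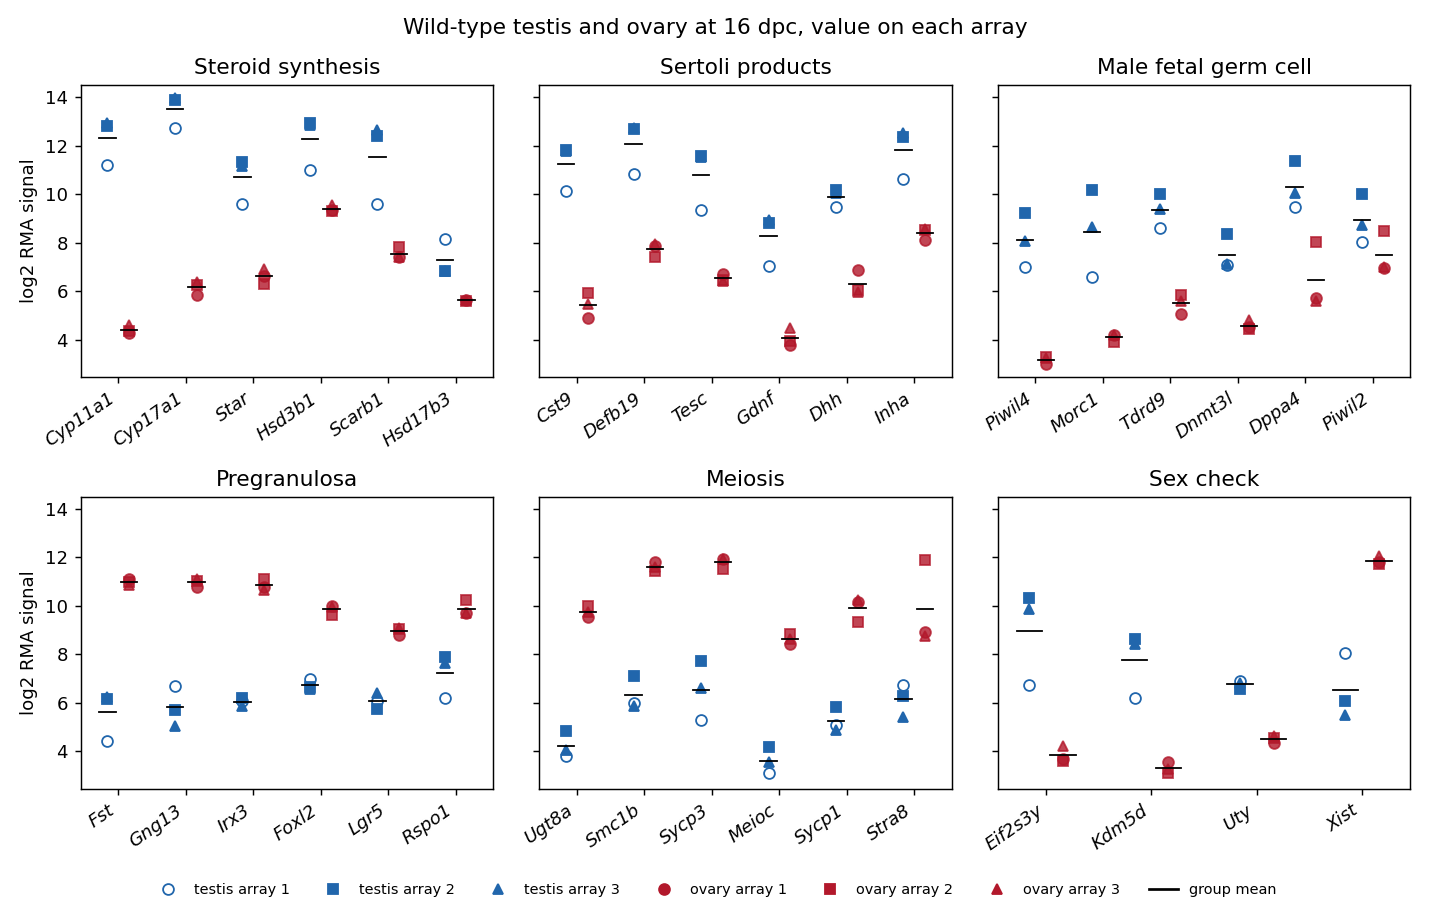
Log2 signal of 34 genes on each testis array (blue) and ovary array (red) at 16 dpc, in panels for steroid synthesis, Sertoli products, male fetal germ cell, pregranulosa, meiosis and the check of sex; black bars are group means and the open circle is testis array 1. For most testis-high genes the open circle sits below the other testis arrays, but still above the ovaries.

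Genes that build cholesterol, the raw material of steroids, were mostly higher too. Of 20 measured members of the cholesterol list, 16 were called higher and 0 lower (median 1.87), and 18 and 0 without testis array 1. Leaving out any other array gave 11 to 15, with 11 without ovary array 1. Tm7sf2, a sterol reductase, measured 8.95, 11.04 and 11.23 in testes against 7.07, 7.36 and 7.25 in ovaries and rose by 3.18 ± 0.43 (adjusted p = 1.99e-05). Cyp51, the lanosterol demethylase, rose by 2.92 ± 0.45, and Msmo1, which removes the next methyl groups, by 2.61 ± 0.50. Idi1, which makes the isoprenoid unit that the pathway polymerises, rose by 2.39 ± 0.56 and lost its call without ovary array 1. The ovary arrays themselves differed for this gene, at 7.36, 9.52 and 8.11, with array 2 the highest. The 4 members not called were the regulators Insig1 (−0.55) and Srebf2 (0.36), the kinase gene Pmvk (0.89) and the synthase gene Hmgcs1 (1.52).

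Sertoli cell products were higher in testes in 13 of 24 measured genes and lower in 1, with a median of 1.63, and in 17 and 1 without testis array 1. Cst9, a cystatin family gene of Sertoli cells, measured 10.12, 11.81 and 11.78 in testes against 4.90, 5.93 and 5.46 in ovaries and rose by 5.80 ± 0.43 (adjusted p = 2.13e-09). Defb19, a defensin gene, measured 10.82, 12.66 and 12.70 in testes against 7.85, 7.42 and 7.95 in ovaries, and the calcium-binding protein gene Tesc 9.32, 11.56 and 11.53 in testes against 6.70, 6.44 and 6.41 in ovaries. In both, testis arrays 2 and 3 lay within 0.1 of each other while array 1 was lower by close to 2 log2 units. Gdnf, the growth factor that maintains male germline stem cells after birth, was at least 7.31-fold higher (difference 4.19 ± 0.46, adjusted p = 8.85e-07), with 7.03, 8.82 and 8.92 in testes against 3.77, 3.96 and 4.46 in ovaries. Inha, the inhibin α subunit, rose by 3.44 ± 0.40, and the activin subunit genes Inhba and Inhbb by 2.83 ± 0.35 and 2.15. Cyp26b1, the enzyme that degrades retinoic acid and shields male germ cells from it, measured 7.49, 7.66 and 8.26 in testes against 6.21, 6.01 and 5.27 in ovaries and rose by 1.98 ± 0.29 (adjusted p = 6.59e-05). Hsd17b3, which makes testosterone from androstenedione, measured 8.14, 6.84 and 6.83 in testes against 5.64, 5.57 and 5.64 in ovaries, and here testis array 1 was the highest. Kitl, the ligand of Kit, went the other way and fell by 1.82.

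Amh, the hormone of Sertoli cells that removes the Müllerian duct, did not pass the test with all arrays. It measured 9.81, 7.50 and 7.68 in testes against 6.73, 6.43 and 7.00 in ovaries, a difference of 1.61 ± 0.73 (adjusted p = 0.187), and array 1 was the highest testis. With kind of array as a term and testis array 1 left out, Amh was called higher (2.53 ± 0.56, adjusted p = 0.00244). The groups did not overlap, yet testis arrays 2 and 3 lay within 1 log2 unit of the highest ovary. Among Sertoli transcription factors 4 of 19 were called higher and 2 lower with a median of 0.23, and 7 and 2 without testis array 1, but 2 higher with either testis array 2 or 3, or ovary array 1 or 3, left out. Sox8, a partner of Sox9, measured 6.48, 6.11 and 6.45 in testes against 4.29, 4.37 and 4.56 in ovaries and rose by 1.94 ± 0.25 (adjusted p = 9.61e-06). Dmrt1, a factor that keeps male identity in Sertoli and germ cells, measured 7.30, 8.87 and 8.53 in testes against 5.15, 7.85 and 4.92 in ovaries, with ovary array 2 reaching the testis range, and its rise of 2.26 ± 0.59 kept its call in 2 of the 6 fits that left out 1 array. Sox9, the factor that sets Sertoli fate, measured 7.91, 7.20 and 7.49 in testes against 6.74, 6.49 and 6.21 in ovaries on the probe set with the highest mean and was not called (1.05 ± 0.50, adjusted p = 0.214), but was with kind of array as a term and testis array 1 left out (2.25 ± 0.32, adjusted p = 2.29e-05). Its other 2 probe sets were called higher when every probe set was tested, by 1.63 and 0.71. Ptgds, the prostaglandin D synthase that reinforces Sox9, measured 11.24, 11.25 and 11.30 in testes against 8.90, 8.52 and 8.32 in ovaries and rose by 2.68 ± 0.43. Wt1, a factor of Sertoli and coelomic epithelial cells in both sexes, was called lower, by 1.38, and by 0.83 without testis array 1. Gata1, which this list also held, was called lower by 1.85. Genes of red cell precursors fell too, as given below, and their part in the fall of Gata1 was not tested.

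Hedgehog signalling, by which Sertoli cells address the interstitium, was higher at the level of ligand, receptor and targets. The ligand gene Dhh measured 9.46, 10.19 and 10.02 in testes against 6.87, 6.04 and 5.95 in ovaries and rose by 3.60 ± 0.37 (adjusted p = 3.6e-07). Gli1, a transcriptional effector and target of the pathway, measured 8.19, 8.89 and 8.86 in testes against 5.55, 5.62 and 5.33 in ovaries and rose by 3.15 ± 0.34. Hhip, a secreted antagonist that the pathway induces, was at least 5.28-fold higher, and the receptor gene Ptch1, also induced, rose by 2.72 ± 0.61. The signal transducer Smo gave −0.20 and was not called. Of 22 stroma and hedgehog genes, 7 were called higher and 1 lower (median 0.27), against 11 and 1 without testis array 1. General stroma genes such as Col1a1, Col3a1 and Dcn, at −0.51, 0.02 and 0.13, were not called.

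Smooth muscle genes of the peritubular layer were mixed. Acta2, smooth muscle actin, measured 12.08, 13.26 and 13.35 in testes against 11.42, 11.45 and 11.36 in ovaries and rose by 1.49 ± 0.26 (adjusted p = 0.000451), and the related actin Actg2 rose by 1.76 ± 0.25 and the actin-bundling protein gene Tagln by 1.34 ± 0.29. Myl9, a myosin light chain, instead fell by 1.53 ± 0.33, with 8.72, 10.85 and 10.75 in testes against 11.59, 11.56 and 11.77 in ovaries, and its difference was −0.84 without testis array 1. Of 14 genes, 5 were called higher and 2 lower (median 0.57), 7 and 2 without testis array 1, and 3 higher in each of the 5 fits that left out 1 of the other arrays. In the basement membrane list, 4 of 23 were called higher and 0 lower (median 0.50), namely Col4a4, Col9a3, Lama2 and Col15a1, against 11 and 0 without testis array 1. Col4a4, a chain of the collagen IV network, measured 7.87, 9.76 and 9.82 in testes against 6.45, 5.46 and 5.89 in ovaries and rose by 3.21 ± 0.57. The laminin chain gene Lama2 rose by 2.08 ± 0.33.

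**Figure D3:**
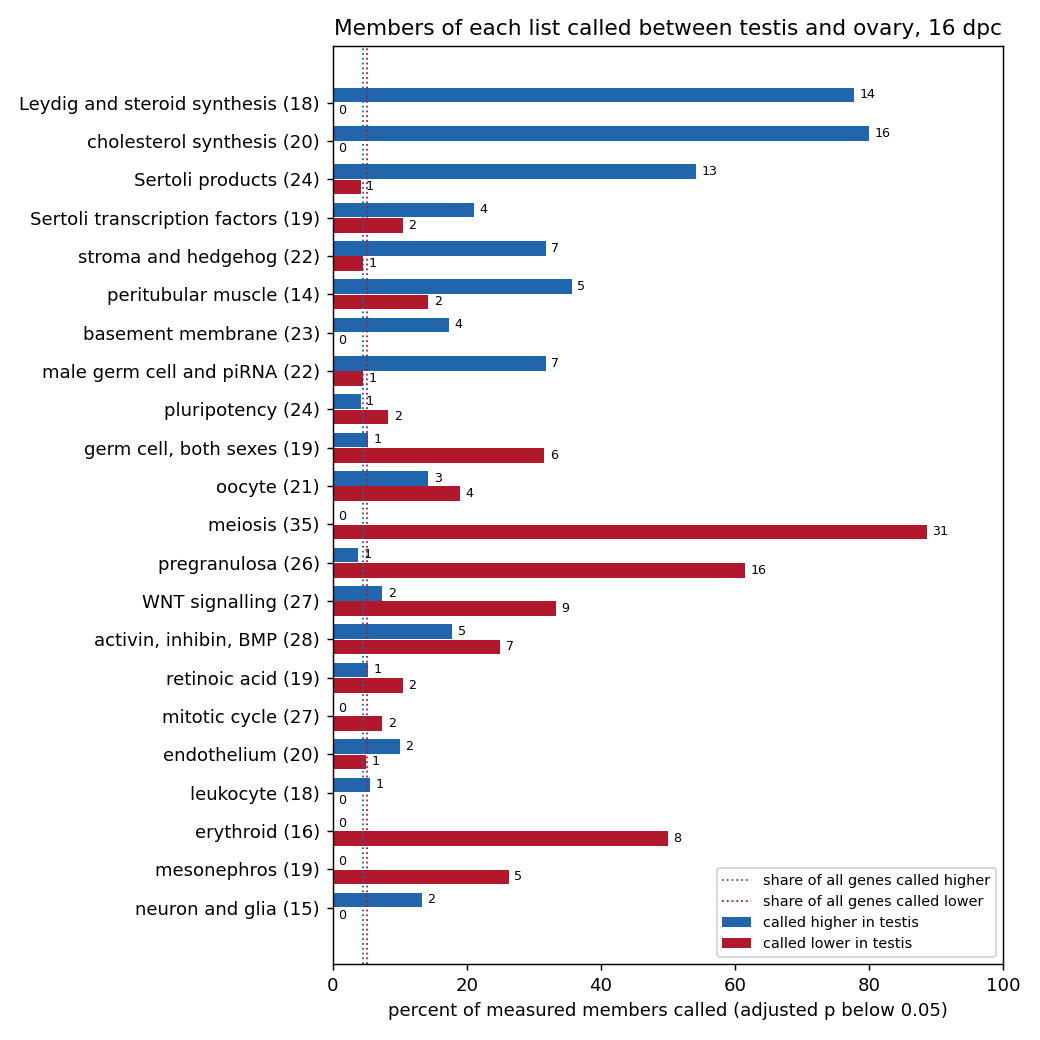
Percent of the measured members of each gene list that were called higher (blue, upper bar) or lower (red, lower bar) in testes at 16 dpc; the number of members stands beside each name and the number called beside each bar, and dotted lines mark the shares over all genes. Meiosis (31 of 35 lower), cholesterol (16 of 20 higher) and Leydig genes (14 of 18 higher) have the longest bars.

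Genes of fetal male germ cells included several large rises. Piwil4, the PIWI protein that enters the nucleus of fetal male germ cells and directs DNA methylation to transposons, measured 7.00, 9.22 and 8.05 in testes against 3.01, 3.26 and 3.23 in ovaries. Array 2 was the highest testis and array 1 the lowest, and all 3 ovaries lay below the low-signal limit. Piwil4 was at least 6.51-fold higher (difference 4.93 ± 0.37, adjusted p = 2.57e-09). Morc1, an ATPase gene needed to silence transposons in the male germ line, measured 6.57, 10.15 and 8.62 in testes against 4.19, 3.90 and 4.20 in ovaries, at least 8.34-fold higher. Tdrd9, the helicase that works with Piwil4, measured 8.61, 10.00 and 9.37 in testes against 5.06, 5.85 and 5.59 in ovaries and rose by 3.82 ± 0.35 (adjusted p = 5.19e-08). Dnmt3l, the cofactor of de novo DNA methyltransferases, measured 7.05, 8.36 and 7.10 in testes against 4.51, 4.42 and 4.79 in ovaries and was at least 4.34-fold higher. The catalytic partners Dnmt3a and Dnmt3b gave 0.05 and 0.14 and were not called. Lefty2, a secreted antagonist of Nodal signalling, was at least 2.8-fold higher (adjusted p = 2.65e-06), whereas Nodal itself gave −0.12. Of 22 measured genes of the male germ cell and piRNA list, 7 were called higher and 1 lower, with a median of 0.09, and the counts were the same without testis array 1. The gene called lower, Tdrkh, fell by 1.55; its product anchors the piRNA machinery at mitochondria. Nanos2 was not analysed here.

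Genes that germ cells of both sexes use held calls in both directions. Ddx4, the germ cell RNA helicase, measured 8.20, 10.40 and 9.35 in testes against 9.48, 10.58 and 9.36 in ovaries, ranges that overlap, with a difference of −0.48 ± 0.70 (adjusted p = 0.761). That difference was 0.075 without testis array 1, and −1.53 ± 0.58 (adjusted p = 0.0766) with kind of array as a term as well. With that term and all arrays, or in narrow arrays alone, Ddx4 was called lower, by 1.56 and 1.60. Kit, present in germ cells and other cells, measured 7.21, 8.79 and 8.47 in testes against 7.05, 8.06 and 6.81 in ovaries and was not called (0.85 ± 0.54). Dazl, which licenses germ cells for sexual development, fell by 2.70 ± 0.60 (adjusted p = 0.00448), with 8.99, 10.15 and 8.80 in testes against 11.78, 12.80 and 11.46 in ovaries. The list of 19 germ cell genes had 1 called higher and 6 lower (median −0.35), and 4 and 5 without testis array 1 and also without ovary array 2. Over all genes, 4.5% were called higher and 5.14% lower with all arrays. Among 24 pluripotency genes, 1 was called higher and 2 lower (median 0.14), and 2 and 4 without testis array 1 and 4 and 2 without ovary array 2. Dppa4, a chromatin factor of pluripotent and early germ cells, measured 9.45, 11.37 and 10.03 in testes against 5.72, 8.02 and 5.59 in ovaries and rose by 3.84 ± 0.52 (adjusted p = 1.88e-05). Pou5f1, the pluripotency factor OCT4, measured 6.94, 8.74 and 7.45 in testes against 5.84, 8.34 and 5.33 in ovaries, with ovary array 2 inside the testis range, and was not called (1.21 ± 0.51, adjusted p = 0.152) but was without testis array 1 (1.59, adjusted p = 0.0383) and without ovary array 2 (2.12, adjusted p = 0.000914). For Pou5f1, Dppa4, Ddx4, Kit and Dazl alike, ovary array 2 was the highest ovary and testis array 2 the highest testis.

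Meiosis genes were lower in testes. Of 35 measured meiosis genes, 31 were called lower in testes and 0 higher, with a median of −2.74 against −0.05 over all genes, and without testis array 1 the counts were 29 lower and 1 higher. Smc1b, the meiotic cohesin subunit, measured 6.00, 7.10 and 5.87 in testes against 11.83, 11.45 and 11.58 in ovaries, so that the highest testis was more than 4 log2 units below the lowest ovary, and it fell by 5.29 ± 0.29 (adjusted p = 1.5e-11). Sycp3, a lateral element of the synaptonemal complex that holds paired chromosomes together, measured 5.31, 7.70 and 6.60 in testes against 11.95, 11.50 and 11.93 in ovaries and fell by 5.25 ± 0.46 (adjusted p = 3.04e-08). Sycp1, the transverse filament of that complex, measured 5.09, 5.83 and 4.88 in testes against 10.16, 9.34 and 10.23 in ovaries and fell by 4.64 ± 0.30. For Smc1b and Sycp3 the testis arrays were spread more widely than the ovary arrays, and for Sycp1 about as widely. In each of these genes array 2 was the highest testis.

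Regulators of meiotic entry and progression fell as well. Stra8, which retinoic acid induces at entry, measured 6.73, 6.29 and 5.41 in testes against 8.91, 11.90 and 8.76 in ovaries, with ovary array 2 about 3 log2 units above the other ovaries, and fell by 3.71 ± 0.52 (adjusted p = 2.76e-05). Meioc, which stabilises the meiotic programme through RNA binding partners, measured 3.09, 4.19 and 3.55 in testes against 8.43, 8.82 and 8.63 in ovaries, at least 9.44-fold lower. Terb1, which tethers telomeres to the nuclear envelope during pairing, was at least 18.7-fold lower, with 4.59, 4.32 and 4.27 in testes against 9.97, 9.09 and 9.78 in ovaries. For recombination, the single-strand DNA binding gene Meiob was at least 5.67-fold lower and the strand exchange gene Dmc1 fell by 2.27 ± 0.27, while Spo11, which makes the initiating breaks, fell by 2.63. Ugt8a, a galactosyltransferase gene of galactolipid synthesis that the meiosis list also held, measured 3.80, 4.84 and 4.05 in testes against 9.54, 9.97 and 9.74 in ovaries and was at least 20.6-fold lower. The 4 members that were not called were Mlh3 (−0.39), Ythdc2 (−0.20), Psmc3ip (0.10) and Trip13 (0.49). Rec8, the meiotic kleisin, measured 6.20, 6.37 and 5.71 in testes against 9.45, 10.60 and 9.44 in ovaries and fell by 3.74 ± 0.28 (adjusted p = 2.26e-09).

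Promoters of these genes were read from RefSeq sequence on build GRCm38.p6, from 250 bases before to 50 bases after the start site. The aim was to count 2 short motifs in the genes that fell. Windows were found for 27 of the 31 genes called lower. Both strands were searched for CACGTG, an E-box that reads the same on both strands, and for TTCCCGC. The second is a form of the E2F site, and on the opposite strand it reads GCGGGAA. The E-box was present in 7 of the 27 genes (25.9%), against 8.09% of 27025 genes with a window. The E2F letters stood in 11 (40.7%), against 5.29% of all, and 13 genes (48.1%) held either, against 12.8% of all. In the germ cell list, called or not, 7 of 16 genes with a window held the E-box (43.8%) and 4 the E2F letters (25%). Only 4 of those 16 were called lower, of which 2 held the E-box and 2 the E2F letters. The meiosis windows held a median of 20 CG dinucleotides against 7 over all genes, and among the 7104 genes with at least 20 the shares were 12.9% for the E-box and 12.6% for the E2F letters. The 5 windows below, which hold a match and belong to genes with large falls, are written 5′ to 3′ on the strand of the gene with the matched letters in capitals, and no 2 matches overlap.
Smc1b, chr15:85131908-85132207, minus strand: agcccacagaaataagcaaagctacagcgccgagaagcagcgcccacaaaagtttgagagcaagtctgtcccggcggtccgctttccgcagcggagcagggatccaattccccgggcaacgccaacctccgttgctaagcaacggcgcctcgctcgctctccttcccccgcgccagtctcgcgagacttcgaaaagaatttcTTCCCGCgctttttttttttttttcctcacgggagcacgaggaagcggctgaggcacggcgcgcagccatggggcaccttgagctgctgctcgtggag
Sycp3, chr10:88459337-88459636, plus strand: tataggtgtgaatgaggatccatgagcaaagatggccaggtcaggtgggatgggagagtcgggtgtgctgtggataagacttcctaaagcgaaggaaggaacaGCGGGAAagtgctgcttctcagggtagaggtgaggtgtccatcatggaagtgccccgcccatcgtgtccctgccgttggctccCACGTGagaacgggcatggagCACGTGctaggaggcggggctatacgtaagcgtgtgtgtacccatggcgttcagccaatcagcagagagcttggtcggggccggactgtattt
Meioc, chr11:102665335-102665634, plus strand: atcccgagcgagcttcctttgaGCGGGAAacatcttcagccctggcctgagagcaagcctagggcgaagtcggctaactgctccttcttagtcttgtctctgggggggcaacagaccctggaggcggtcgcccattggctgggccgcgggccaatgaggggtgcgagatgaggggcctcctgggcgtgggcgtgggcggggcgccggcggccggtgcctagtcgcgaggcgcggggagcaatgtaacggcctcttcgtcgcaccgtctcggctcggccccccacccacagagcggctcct
Sycp1, chr3:102936051-102936350, minus strand: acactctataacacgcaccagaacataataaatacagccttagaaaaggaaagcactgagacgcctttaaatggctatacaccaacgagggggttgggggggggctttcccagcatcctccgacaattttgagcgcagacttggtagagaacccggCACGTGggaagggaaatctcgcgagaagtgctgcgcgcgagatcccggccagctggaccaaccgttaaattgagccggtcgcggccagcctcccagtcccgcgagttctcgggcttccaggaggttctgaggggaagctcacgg
Hormad1, chr3:95559427-95559726, plus strand: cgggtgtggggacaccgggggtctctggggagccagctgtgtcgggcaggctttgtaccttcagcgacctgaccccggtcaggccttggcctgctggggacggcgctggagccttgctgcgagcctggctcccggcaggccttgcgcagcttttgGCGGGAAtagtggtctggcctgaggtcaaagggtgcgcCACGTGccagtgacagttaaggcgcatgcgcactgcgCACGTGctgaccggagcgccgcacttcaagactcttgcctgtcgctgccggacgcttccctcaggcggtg
Sycp3 and Hormad1 hold both kinds of match, Smc1b and Meioc the E2F letters alone, and Sycp1 the E-box alone. Hormad1, which marks unpaired chromosome axes, measured 4.60, 6.74 and 5.58 in testes against 9.26, 9.41 and 9.12 in ovaries and fell by 3.62 ± 0.36 (adjusted p = 2.11e-07). The same search found the letters AAGGTCA (a site of the steroid factor NR5A1) in 0 of 8 Leydig genes called higher, against 5.38% of all genes. AACAAT (a SOX site) stood in 1 of 10 Sertoli product genes called higher, against 12.2%, and GTCAAGG (a FOXL2 site) in 0 of 12 pregranulosa genes called lower, against 3.65%. A match is only a run of letters, and an absent match says only that these letters are not in that window.

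Oocyte genes moved in both directions. Figla, the factor that later switches on the egg coat genes, measured 4.41, 5.07 and 4.68 in testes against 7.51, 7.56 and 7.70 in ovaries and was at least 4.61-fold lower in testes (adjusted p = 4.07e-08). Sohlh2, another transcription factor of early oocytes, fell by 2.34 ± 0.34, while its relative Sohlh1 rose by 1.46 ± 0.26 (adjusted p = 0.000488), with 6.78, 7.61 and 6.37 in testes against 5.37, 5.49 and 5.51 in ovaries. The RNA-binding protein gene Ybx2 fell by 2.02 ± 0.34. Of 21 oocyte genes, 3 were called higher and 4 lower (median 0.03), and the egg coat genes Zp1, Zp2 and Zp3, at −0.24, 0.33 and 0.30, were not called.

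The pregranulosa genes that define the fetal ovary's supporting cells were lower in testes. Fst, the activin antagonist, measured 4.43, 6.17 and 6.25 in testes against 11.09, 10.97 and 10.87 in ovaries and fell by 5.36 ± 0.36 (adjusted p = 3.21e-10). Foxl2 measured 6.99, 6.67 and 6.57 in testes against 9.98, 9.62 and 9.95 in ovaries and fell by 3.11 ± 0.24 (adjusted p = 4.49e-09). In both genes the ovary arrays lay within 0.4 of one another. Irx3, a homeobox gene of pregranulosa cells, measured 6.06, 6.20 and 5.85 in testes against 10.77, 11.12 and 10.64 in ovaries and fell by 4.81 ± 0.24, and the G protein subunit gene Gng13 by 5.14 ± 0.33. Tnfrsf19, a receptor of the TNF family that WNT signalling can induce, measured 6.00, 7.35 and 7.14 in testes against 11.69, 11.31 and 11.66 in ovaries and fell by 4.72 ± 0.28 (adjusted p = 3.55e-11). Of 26 pregranulosa genes, 16 were called lower and 1 higher, with a median of −1.44, and 16 and 2 without testis array 1. The gene that rose, Wnt5a, a WNT ligand that acts mostly outside the β-catenin route, did so by 1.81.

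In the WNT pathway, calls fell on ligands, receptors and targets, mostly lower in testes. Rspo1, the secreted enhancer of WNT signalling that the ovary needs, measured 6.21, 7.89 and 7.63 in testes against 9.68, 10.25 and 9.69 in ovaries and fell by 2.63 ± 0.33 (adjusted p = 5.18e-06). Its receptor gene Lgr5 measured 6.08, 5.75 and 6.38 in testes against 8.79, 9.06 and 9.09 in ovaries and fell by 2.91 ± 0.24. The ligand gene Wnt4 fell by 1.41 ± 0.39, with 7.84, 9.82 and 10.04 in testes against 10.61, 10.73 and 10.58 in ovaries, and kept its call in 2 of the 6 fits that left out 1 array, with a difference of −0.71 without testis array 1. Target genes Sp5 and Nkd1 fell by 2.17 ± 0.27 and 1.91 ± 0.31, and Axin2 by 1.19, while the target Lef1 (−0.51) was not called. Of 27 WNT genes, 9 were called lower and 2 higher (median −0.20), 9 and 3 without testis array 1, and 5 lower without any 1 of the ovary arrays. Ctnnb1, which encodes β-catenin, gave −0.09.

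Among the activin, inhibin and BMP genes, 5 of 28 were called higher and 7 lower (median −0.06), and 8 and 7 without testis array 1. Inhibin and activin subunits rose, as given above, whereas the antagonist Fst and the ligand gene Bmp2 fell, Bmp2 by 2.00 ± 0.35 with 6.02, 6.59 and 6.99 in testes against 8.41, 8.91 and 8.28 in ovaries. The BMP target genes Id1, Id2 and Id3 fell by 1.18, 1.63 and 1.27. Amhr2, the receptor for AMH, fell by 1.79. Sostdc1, a secreted antagonist of BMP and WNT ligands, measured 9.03, 10.18 and 10.43 in testes against 5.48, 5.53 and 5.06 in ovaries and rose by 4.52 ± 0.39 (adjusted p = 2.82e-08). Of 26 FGF and RAS pathway genes, 6 were called higher and 2 lower, the feedback phosphatase gene Dusp6 rising by 1.54 ± 0.32 and Fgf13 by 2.86 ± 0.52, while Fgf9 gave 0.67 and was not called. In the retinoic acid list 1 of 19 was called higher (Cyp26b1) and 2 lower (Stra8 and Rec8, both also in the meiosis list). Without testis array 1 these counts were 3 and 4. The shares of all genes called were 4.5% higher and 5.14% lower, and 17.5% and 8.78% without testis array 1. The receptor genes Rara, Rarb and Rarg gave −0.21, 0.53 and 0.21.

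Several large differences lay outside these pathways. Calb1, a calcium-binding protein gene kept among the mesonephros and tubule markers, measured 4.35, 4.00 and 3.83 in testes against 9.76, 9.26 and 10.04 in ovaries, at least 19.6-fold lower in testes (adjusted p = 2.21e-11). Gsta2, a glutathione transferase gene, was at least 19.5-fold higher, with 8.01, 10.65 and 10.36 in testes against 3.53, 3.75 and 4.03 in ovaries. Adh1, an alcohol dehydrogenase that can oxidise retinol, measured 10.82, 12.60 and 12.61 in testes against 6.83, 6.25 and 7.25 in ovaries and rose by 5.24 ± 0.41 (adjusted p = 4.1e-09). Cbln1, a secreted synapse organiser in the brain, measured 10.01, 11.67 and 11.64 in testes against 6.01, 6.31 and 5.48 in ovaries and rose by 5.18 ± 0.39 (adjusted p = 2.67e-09). Hsd17b1, which converts oestrone to oestradiol, was at least 16.9-fold higher, and Hao2, a hydroxyacid oxidase gene, rose by 4.76 ± 0.44 with 9.79, 11.47 and 11.68 in testes against 6.29, 6.24 and 6.12 in ovaries. Hao2 neighbours Hsd3b1 on chromosome 3 and Naglu, which rose by 1.06 ± 0.27, neighbours Hsd17b1 on chromosome 11, in the RefSeq gene order. The call of Naglu was lost without testis array 2 or 3 or ovary array 2, and in narrow arrays alone. Adrenal-type genes were represented by Cyp11b1, the 11β-hydroxylase of the adrenal cortex, at least 5.32-fold higher (adjusted p = 7.77e-08), and by the ACTH receptor gene Mc2r, which rose by 1.34 ± 0.34, while Cyp21a1 (0.31) and Cyp11b2 (0.25) were not called. Mc2r lost its call without ovary array 2, with housekeeping centring, and with each of the 3 other scalings tried without testis array 1.

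Markers of other cells that a dissected gonad can hold also differed. Of 16 erythroid genes, 8 were called lower in testes and 0 higher (median −1.35), and 3 to 8 were called lower as each array was left out, 3 of them without testis array 3, ovary array 1 or ovary array 3, 4 without testis array 2 and 7 without testis array 1. The median level of the list was 6.46 to 7.42 across testis arrays and 7.83 to 9.51 across ovary arrays. Hemgn, a nuclear protein gene of red cell precursors, measured 8.16, 7.18 and 4.84 in testes against 10.28, 8.19 and 10.94 in ovaries, the erythroid factor gene Klf1 7.89, 7.13 and 6.44 in testes against 9.07, 8.80 and 10.24 in ovaries, and Rhag, a membrane protein gene of red cells, 5.97, 4.43 and 3.76 in testes against 7.22, 6.93 and 8.40 in ovaries. All 3 had ovary array 3 highest and testis array 3 lowest, and Hemgn lost its call without testis array 3 or ovary array 1 or 3. Of 19 mesonephros genes, 5 were called lower and 0 higher (median −0.43), among them Krt18 (−2.27 ± 0.47) and Krt8 (−1.53 ± 0.45), and the list's median level was 5.08 to 5.70 across testis arrays and 5.89 to 6.18 across ovary arrays. Krt8 kept its call in 2 of the 6 fits that left out 1 array. In the coelomic epithelium list 4 of 18 were called lower and 0 higher, against 4 and 2 without testis array 1. The part of these cells in the other results was not tested.

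Endothelial, leukocyte, neural and mast cell lists were counted too. Over all genes, 4.5% were called higher and 5.14% lower, and 17.5% and 8.78% without testis array 1. Of 20 endothelial genes 2 were called higher (the junction gene Cdh5, 0.82 ± 0.19, and the guidance receptor gene Robo4, 0.54 ± 0.16) and 1 lower (the venous receptor gene Ephb4, −0.61 ± 0.19), with 8 higher without testis array 1. Cdh5 kept its call as each array was left out. It lost it with the mean over probe sets, with housekeeping centring and in narrow arrays alone, and its other probe set gave −0.09. Neither Robo4 nor Ephb4 was called with kind of array as a term and testis array 1 left out. Robo4 and Ephb4 kept their calls in 2 and 1 of the 6 fits that left out 1 array, and Robo4 reversed its sign without testis array 1 when arrays were centred on housekeeping genes. Of 18 leukocyte genes 1 was called higher (Lyz2, 1.13 ± 0.35), and of 16 mast cell and melanocyte genes 1 was called lower (Cma1, a mast cell protease, −1.97 ± 0.54), and without testis array 1 these counts were 3 and 3. Lyz2 and Cma1 kept their calls in 2 and 3 of the 6 fits that left out 1 array. The call of Lyz2 was lost without testis array 2 or 3 or ovary array 1 or 2. That of Cma1 was lost without testis array 3 or ovary array 1 or 3. It was also lost with kind of array as a term and testis array 1 left out. In the neuron and glia list the cytoskeletal genes Tubb3 (1.64 ± 0.40) and Mapt (0.85 ± 0.19) were the 2 of 15 called higher, and Mapt reversed under the same centring without testis array 1. Tubb3 lost its call without testis array 3 and in narrow arrays alone.

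Cell cycle genes differed with and without testis array 1. Over all genes, too, the shares called moved, from 4.5% higher and 5.14% lower to 17.5% and 8.78% without it. Of 27 mitotic cycle genes, 0 were called higher and 2 lower (median 0.23) with all arrays by limma, with 4 and 3 at an unadjusted p below 0.05, and 12 were called higher and 1 lower without testis array 1 (median 0.80), and without ovary array 2 or 3 none of the 2 lower calls was kept. The list's median level was 8.62 on testis array 1, and up to 10.48 on the other testis arrays, against 9.20 to 9.93 on ovary arrays. Housekeeping genes showed a like pattern: 0 of 14 were called higher and 1 lower (Hprt, −1.09 ± 0.33, a call lost also without ovary array 2 or 3), but 5 and 0 without testis array 1, with a list median of 0.43. Centring on that list moved the median of all genes to −0.64 without testis array 1, against 0.03 without that centring, and rises without that array are relative to the deposited scale. Of 15 p53 and apoptosis genes, Pmaip1 rose by 1.60 ± 0.34 and the cell cycle inhibitor gene Cdkn1a fell by 1.27 ± 0.27. Among 18 imprinted genes, Cdkn1c and Igf2 fell by 1.75 ± 0.46 and 1.20 ± 0.23, the difference of Cdkn1c being −0.90 without testis array 1, and Plagl1 rose by 0.88 ± 0.23 and lost its call without testis array 3 or ovary array 2.

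Calls on the sex chromosomes were counted as well. Of 617 measured X-linked genes, 31 were called higher (5.02%) and 44 lower (7.13%), against 4.5% and 5.14% over all genes. Without testis array 1 the counts were 127 higher and 60 lower, where 17.5% and 8.78% of all genes were called. Of 9 Y-linked genes 4 were called higher, the fourth being Uba1y (4.30 ± 0.53). Kdm5d, Eif2s3y, Uty and Uba1y are neighbours on the Y.

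The same difference was measured in Wv/Wv gonads at 16 dpc, which hold few germ cells. There 1266 genes were called (6.96%), 689 higher in testes (3.79%) and 577 lower (3.17%). Of the 819 genes called higher in wild type, 432 (52.7%) were also called higher in Wv/Wv, which is 62.7% of the Wv/Wv calls, and 2 were called lower. Of the 936 called lower, 269 (28.7%) were called lower in Wv/Wv, 46.6% of its calls, and 11 were called higher. Genes called lower in wild type had a median of −1.10 there and −0.25 in Wv/Wv, whereas those called higher had 1.34 and 1.10. The test of the difference itself, the interaction of gonad and genotype, called 148 genes (0.813%), 30 with a higher testis minus ovary difference in wild type (0.165%) and 118 with a lower one (0.649%). Of those 148, 18 belonged to the 819 higher calls and 106 to the 936 lower calls. The kinds of array lay unevenly here as well, with 1 narrow and 2 wide arrays in each Wv/Wv gonad, 1 narrow and 2 wide in wild-type testes and 3 narrow in wild-type ovaries. With kind of array as a term the interaction called 1332 genes, and 520 when testis array 1 was also left out.

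Lists of Leydig, Sertoli and pregranulosa genes were called in both genotypes. Leydig genes were called higher in 14 and 13 of 18 in wild type and Wv/Wv, with medians of 2.67 and 2.51, Sertoli products in 13 and 15 of 24 (1.63 and 1.69), cholesterol genes in 16 and 17 of 20 (1.87 and 2.25), and pregranulosa genes lower in 16 and 18 of 26 (−1.44 and −1.87). The interaction by genotype called 0 genes of these 4 lists by limma, with 0, 0, 4 and 1 genes at an unadjusted p below 0.05 in the Leydig, Sertoli product, cholesterol and pregranulosa lists, against 8.87% of all genes. Cyp11a1 differed by 7.89 in wild type and 8.36 in Wv/Wv, and Fst by −5.36 and −5.76. Erythroid genes, of which 8 of 16 fell in wild type, gave 0 calls in Wv/Wv by limma (median 0.17, 0 also at an unadjusted p below 0.05, against 13.8% of all genes). In the interaction 0 were called and 10 of 16 had an unadjusted p below 0.05, against the same 8.87% of all genes. Mitotic cycle genes were called higher in 0 of 27 in wild type, 12 without testis array 1, and in 13 in Wv/Wv (median 1.175). Of these 27, 3 were called in the interaction by limma. At an unadjusted p below 0.05 in the interaction there were 12 (44.4%), all lower. Amh was called in Wv/Wv (2.62 ± 0.73, adjusted p = 0.026) although not in wild type, and its interaction was not called (adjusted p = 0.871). Sox9 showed the same pattern (1.71 ± 0.50 in Wv/Wv, interaction adjusted p = 0.88).

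**Figure D4:**
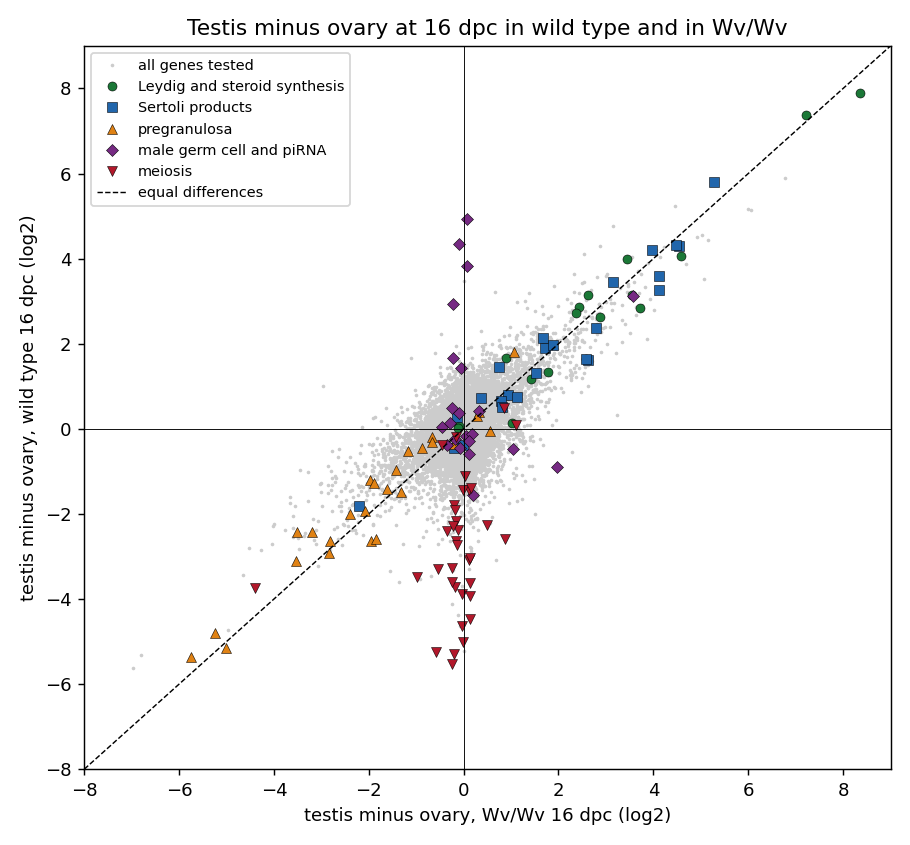
Testis minus ovary difference at 16 dpc (log2) in wild type (vertical) against that in Wv/Wv (horizontal) for 18194 genes, with members of 5 lists coloured and a dashed line of equal differences. Leydig, Sertoli and pregranulosa genes lie along the line, while most meiosis genes, and Piwil4, Morc1, Tdrd9 and Dnmt3l, lie near 0 on the horizontal axis.

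Meiosis and male germ cell genes were prominent among the interactions. Of 35 meiosis genes, 31 fell in wild type and 1 (Rec8) in Wv/Wv, where 1 other, Psmc3ip, rose by 1.10, and 24 were called in the interaction. Smc1b averaged 5.14 ± 0.16 in Wv/Wv testes and 5.34 ± 0.31 in Wv/Wv ovaries (SD, n = 3 each), both below the 3 wild-type testis arrays. The interaction for Smc1b was −5.10 ± 0.42 (adjusted p = 8.03e-08). Ugt8a, Terb1, Meioc and Sycp3 gave interactions of −5.27, −5.23, −4.99 and −4.68. In the other direction, Piwil4 averaged 2.94 ± 0.25 in Wv/Wv testes and 2.87 ± 0.14 in Wv/Wv ovaries (SD, n = 3 each), with an interaction of 4.85 ± 0.53 (adjusted p = 5.14e-06). Morc1, Tdrd9 and Dppa4 gave 4.46, 3.75 and 3.70. Lefty2 was different: it rose by 3.13 in wild type and 3.56 in Wv/Wv and was not called in the interaction (adjusted p = 0.896).

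Rec8 was the meiosis gene called lower in Wv/Wv as well. It averaged 5.51 ± 0.25 in Wv/Wv testes and 9.90 ± 0.37 in Wv/Wv ovaries (SD, n = 3 each), a difference of −4.39 ± 0.28 (adjusted p = 1.77e-10), and its interaction was 0.65 ± 0.40 (adjusted p = 0.731). Rrad, a RAS-related GTPase gene, went opposite ways, with a difference of 1.01 ± 0.30 in wild type and −2.97 ± 0.30 in Wv/Wv, where testes averaged 4.75 and ovaries 7.72. The wild-type call of Rrad was lost in 4 of the 6 fits that left out 1 array and with kind of array as a term and testis array 1 left out, but its interaction (3.98 ± 0.43, adjusted p = 3.97e-06) was called.

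At 14 dpc in wild type, 1079 genes were called (5.93%), 576 higher in testes (3.17%) and 503 lower (2.76%). Of the 819 genes called higher at 16 dpc, 422 (51.5%) were called higher at 14 dpc, 73.3% of the calls at that age, and 2 lower. Of the 936 called lower, 331 (35.4%) were called lower at 14 dpc, 65.8% of the calls there, and 0 higher. The interaction of gonad and age called 23 genes (0.126%), 9 with a higher difference at 16 dpc (0.0495%) and 14 with a lower one (0.0769%). With testis array 1 left out those counts were 35 and 22, and without ovary array 2 they were 28 and 22. Leaving out ovary array 1 gave 6 and 8, and ovary array 3 gave 5 and 8. At 14 dpc all 3 testis arrays were wide, and 1 ovary array was narrow and 2 were wide. With kind of array as a term the interaction called 112 genes, and 114 when testis array 1 was also left out.

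Several male germ cell genes differed at 16 dpc and not at 14 dpc. Piwil4 averaged 4.39 ± 0.72 in testes and 4.01 ± 0.56 in ovaries at 14 dpc (SD, n = 3 each), where its difference of 0.37 was not called, and the interaction by age was 4.55 ± 0.53 (adjusted p = 0.000105). Tdrd9 had a difference of −0.60 at 14 dpc and Dnmt3l 0.21, with interactions of 4.43 (adjusted p = 9.31e-05) and 2.72 (adjusted p = 0.000377). Nxf2, an X-linked RNA export factor gene, measured 8.67, 10.15 and 9.05 in testes against 5.85, 5.93 and 5.64 in ovaries at 16 dpc, a rise of 3.48 ± 0.32, and its interaction by age was 2.96. Sohlh1, given above as higher at 16 dpc, averaged 4.89 ± 0.22 in testes and 5.89 ± 0.38 in ovaries at 14 dpc (SD, n = 3 each) and was called lower there, with an interaction of 2.46 (adjusted p = 0.00166).

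Meiosis genes differed at both ages, with 26 of 35 called lower at 14 dpc and a median of −1.77, against 31 and −2.74 at 16 dpc. Smc1b, Sycp1 and Tex11 were the 3 members called in the interaction. Smc1b averaged 8.16 ± 0.20 in testes and 10.94 ± 0.66 in ovaries at 14 dpc (SD, n = 3 each), and its interaction was −2.52 ± 0.42 (adjusted p = 0.00598). Stra8 had a difference of −5.86 at 14 dpc and −3.71 at 16 dpc, and its interaction was not called (adjusted p = 0.72). Meioc differed by −5.28 at 14 dpc and −5.01 at 16 dpc, and Rec8 by −4.12 and −3.74. Among testis-high genes with smaller differences at 16 dpc were Pmaip1, which encodes the cell death protein NOXA, and Nts, the neuropeptide neurotensin. Pmaip1 was 5.23 higher at 14 dpc and 1.60 at 16 dpc (4.72, 6.00 and 4.83 in testes against 3.87, 3.31 and 3.57 in ovaries), with an interaction of −3.63 (adjusted p = 0.000377). At 16 dpc its ovary arrays and testis arrays 1 and 3 lay under the low-signal limit. Nts was 4.59 and 1.99 higher, with an interaction of −2.60 (adjusted p = 0.00109).

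**Figure D5:**
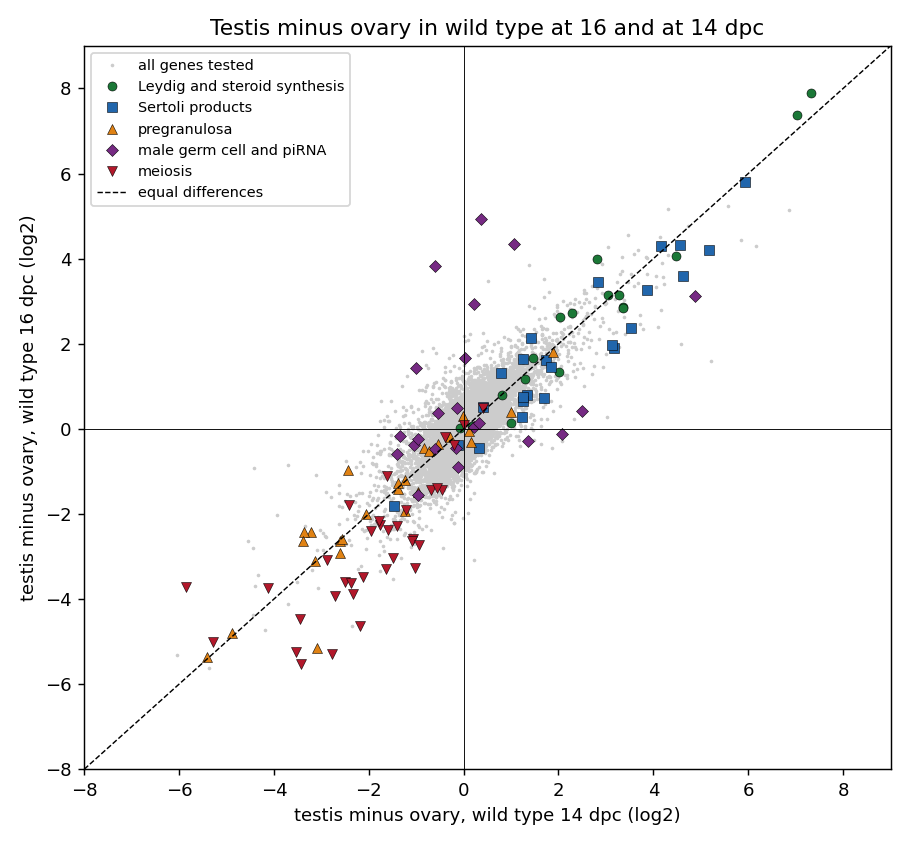
Testis minus ovary difference (log2) in wild type at 16 dpc (vertical) against 14 dpc (horizontal) for 18194 genes, with members of 5 lists coloured and a dashed line of equal differences. Somatic lists lie along the line, most meiosis genes lie below it, and Piwil4, Tdrd9 and Dnmt3l sit above it near 0 on the horizontal axis.

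Cholesterol genes were called higher in 16 of 20 at 16 dpc (median 1.87) and in 8 of 20 at 14 dpc (median 1.19), with 0 called in the interaction by age by limma and 1 at an unadjusted p below 0.05, against 4.03% of all genes. Leydig genes were called in 14 and 13 of 18 at 16 and 14 dpc (2.67 and 2.16), and Sertoli products in 13 and 15 of 24 (1.63 and 1.71). Amh was not called at either age, with differences of 1.61 at 16 dpc and 1.73 at 14 dpc. Sox9 was called at 14 dpc (2.05, adjusted p = 0.0115) and not at 16 dpc, and its interaction was not called (adjusted p = 1).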

How the data were processed

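Whole fetal gonads were measured on Affymetrix 3′ expression arrays. The authors deposited log2 signals per probe set, made with RMA per the submitters' processing notes, whose version is not given in the sources used here. RMA normalises arrays together and compresses low signals. The number of arrays limits the precision.

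Of 45101 probe sets, 34958 had 1 gene symbol in the platform annotation, 932 several and 9211 were not listed, and 34754 symbols matched a RefSeq gene ID. Each of 18194 genes kept 1 probe set, that of highest average signal across the 31 arrays, and 9182 had only 1. In R 4.3.3, lmFit and eBayes of limma 3.58.1 fitted 12 group means over 31 arrays, with the testis minus ovary difference and its interactions as contrasts, and Benjamini-Hochberg adjustment over all genes. The fit was also run on simulated data with independent noise of equal spread on all arrays. That run does not test the fit for the kinds of array or for testis array 1 standing apart. Tables and figures used Python 3.11.15, pandas 2.3.3, numpy 2.4.6 and matplotlib 3.10.9. Columns not mapped to a sample numbered 0.

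The members and the gene lists were chosen with earlier results of these data known. Named genes were the 12 largest rises and 12 largest falls without overlap that were also called with kind of array as a term and testis array 1 left out, for each list the called genes of largest change, at most 4 (or the 2 largest where none was called), fixed markers, the 5 largest interactions in each direction by genotype and by age among genes also called in wild type at 16 dpc, and neighbouring genes called together. Further list members, chiefly those not called, were named after their values were seen. Alternatives covered normalisation, array weights, probe set choice, low signal, kind of array, a replicate block and leaving out each array.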

Additional observations from a re-analysis of the deposited data

Results flagged for a closer look

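Differences between testis and ovary that themselves differed between genotypes or ages were picked out by the interaction tests of limma. By genotype at 16 dpc, 30 genes had a higher testis minus ovary difference in wild type than in Wv/Wv and 118 a lower one. Wild type minus Wv/Wv gave 4.85 for Piwil4, 4.46 for Morc1, 3.98 for Rrad, 3.75 for Tdrd9 and 3.70 for Dppa4. It gave −5.27 for Ugt8a, −5.23 for Terb1, −5.10 for Smc1b, −4.99 for Meioc and −4.68 for Sycp3.

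By age in wild type, 9 genes had a higher difference at 16 dpc than at 14 dpc and 14 a lower one. The 16 dpc minus 14 dpc value was 4.55 for Piwil4, 4.43 for Tdrd9, 2.96 for Nxf2, 2.72 for Dnmt3l and 2.46 for Sohlh1. It was −3.63 for Pmaip1, −2.60 for Nts, −2.52 for Smc1b, −2.45 for Sycp1 and −2.30 for Meiob. The groups hold 3 arrays each, too few for a test of single arrays.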

How the results depend on the processing

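Counts of calls moved with the processing more than the direction of named genes did. Against 819 higher and 936 lower calls in wild type at 16 dpc, 148 in the interaction by genotype and 23 in the interaction by age, array weights gave 6099, 4229, 8989 and 7682, cyclic loess 1886, 1571, 507 and 46, and quantile normalisation 1616, 1804, 497 and 54. Kind of array as a term gave 1878, 3873, 1332 and 112, and 1452, 1476, 520 and 114 with testis array 1 also left out. Fitting only the arrays compared gave 98, 115, 48 and 0 (none by limma in the interaction by age). In that fit of wild type at 16 dpc, 67 of the 120 named genes that were called lost their call. Every probe set gave 1455, 1912 and 235 for the first 3 counts, narrow arrays alone 2023 and 5361, and a 2-fold minimum 548 lower. The interaction by age was 9 without low-signal genes and 7 with housekeeping centring. With testis array 1 left out, a setting chosen after seeing the data, quantile normalisation gave 2502, 2339, 630 and 75, cyclic loess 2614, 2139, 594 and 84, and housekeeping centring 1238, 7338, 343 and 12. Leaving out each array gave 520 to 3175 higher, 611 to 1598 lower, 99 to 192 by genotype and 13 to 57 by age. Why the counts moved was not tested for any setting. The share of higher calls was 46.7%, and 32.7% with kind of array as a term, 27.4% with narrow arrays alone, 66.5% without testis array 1 and 14.4% with housekeeping centring too, which moved the median of all genes to −0.64. Of 120 named genes that were called, 53 kept the call in every setting and 2 reversed in any, Mapt (−0.0021) and Robo4 (−0.16), both with housekeeping centring and testis array 1 left out. Among genes not called, Ddx4 changed sign to 0.34 with array weights and ranged from −1.02 to 0.075 as each array was left out, the highest without testis array 1, and gained a lower call of −1.56 with kind of array as a term and −1.60 in narrow arrays alone. Amh and Sox9 gained higher calls in those same fits, and Kit changed to −0.13 and −0.16 with kind of array as a term, with all arrays and without testis array 1, and −0.10 in narrow arrays alone.

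The labels number the replicates of both gonads 1 to 3 and state no pairing. In their deviations from the group means, same-numbered arrays correlated at 0.44, 0.38 and 0.02. Unlike-numbered arrays ranged from −0.45 (testis array 2 with ovary array 1) to 0.33 (testis array 3 with ovary array 2). Deviations within a group of 3 cancel out, so these values cannot decide whether the numbers pair the samples. The main fit took no pairing. With the replicate block, 748 genes were called higher and 842 lower, 131 by genotype and 17 by age.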

Other observations

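A few genes of Nodal signalling and early patterning differed between testis and ovary at 14 dpc but not at 16 dpc. They were picked after their values were seen, among the genes called in the interaction by age. Nodal, the secreted ligand, gave a difference of −0.12 at 16 dpc and 2.07 at 14 dpc, with an interaction of −2.19 ± 0.31 (limma adjusted p = 0.00109). Its coreceptor gene Tdgf1 gave −0.29 and 1.35 (interaction −1.63, limma adjusted p = 0.043). The homeobox gene Otx2 averaged 6.18 ± 0.33 in testes and 3.16 ± 0.25 in ovaries at 14 dpc (SD, n = 3 each), and its difference at 16 dpc was 0.28. Hesx1, another homeobox gene, gave 0.23 at 16 dpc and 2.32 at 14 dpc. The imprinted gene Phlda2 differed by −0.92 at 16 dpc and −4.42 at 14 dpc, and at 16 dpc ovary array 2 (8.33) was the highest of the 3 ovaries, the others lying at 5.60 and 5.58.

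In all, 13 genes were called in opposite directions in wild type and Wv/Wv at 16 dpc, 11 of them lower in wild-type testes and higher in Wv/Wv testes. These 11 included the centromere gene Cenpw (−1.65 in wild type and 1.22 in Wv/Wv), the histone chaperone gene Asf1b (−1.40 and 0.96) and the ubiquitin-conjugating enzyme gene Ube2t (−1.08 and 1.11). Rrad and the lysosomal gene Cln3 were the 2 with the opposite order, Cln3 at 0.92 and −1.02. All 13 except Oip5 kept their wild-type call without testis array 1.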
